A study of Mus musculus with 6 samples.

Results

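The genes that encode the collagen chains and the lysyl oxidases were followed in left ventricles of mice given 2-methyl-2-thiazoline (2MT) and of mice given saline. The members are the probe sets, the array's groups of oligonucleotides for 1 transcript, whose only annotated gene symbol is a collagen chain (Col, a number, the letter a and a number) or is Lox, Loxl1, Loxl2, Loxl3 or Loxl4. There were 51 such probe sets of 28944 on the array, 46 for collagens and 5 for lysyl oxidases, and they named 44 collagen genes and 4 lysyl oxidase genes. Loxl2 shares its probe set with another symbol and is therefore no member. Col6a5, Col6a6 and Loxl4 had 2 probe sets each, and the one with the higher mean over the 6 arrays stood for the gene.

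The 2MT group held 3 arrays of hearts taken 4 h after an injection under the skin of 50 mg/kg, and the saline group held 3 arrays. All samples came from 10-week-old male C57BL/6 mice (the strain is also spelled C57/BL6 in the labels), with no genetic change named and no operation or injury named for either group. The protocol text of the saline samples is the same as that of the 2MT samples, so the group was taken from the treatment label, and no label says that each array is a separate animal. Values are log2 signals, with no detection calls, so signal over background is unknown. The tissue label was set against 10 cardiomyocyte markers. Their mean log2 signal lay between 12.2 and 12.23 on the 2MT arrays and between 12.2 and 12.22 on the saline arrays. The list holds no marker of the atria, so it could not tell ventricle from mixed heart tissue.

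Collagens are trimers of chains that wind around each other, and each chain has its own gene. Fibrillar collagens, above all types I and III, form the fibres that bear load between heart muscle cells, type IV forms the network of basement membranes around muscle cells and capillaries, and type VI forms beaded filaments between them. Fibril-associated collagens sit on the surface of fibres, multiplexins lie next to basement membranes, and transmembrane collagens stay anchored in the cell. Lysyl oxidases are copper enzymes that oxidise lysine side chains of collagen and elastin, which starts the cross-links that stiffen scar and healthy matrix alike. In the heart, fibroblasts are the main source of fibrillar collagen, and endothelial cells make much of the type IV network.

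Because the type IV genes are the members that lay lowest as a collagen class in 2MT hearts, and because Col4a1 and Col4a2 are read from opposite strands of one short region, their start regions are shown. Among the members found in the promoter table these were the only windows of different genes that overlapped. Each window holds 250 bases before and 50 after the start of the gene in RefSeq's GRCm38.p6 annotation, 5′ to 3′ on the strand of the gene, and the capitals mark the 78 bases that both windows hold. Col4a1 lies on the minus strand at chr8:11312777-11313076 and Col4a2 on the plus strand at chr8:11312555-11312854.
Col4a1: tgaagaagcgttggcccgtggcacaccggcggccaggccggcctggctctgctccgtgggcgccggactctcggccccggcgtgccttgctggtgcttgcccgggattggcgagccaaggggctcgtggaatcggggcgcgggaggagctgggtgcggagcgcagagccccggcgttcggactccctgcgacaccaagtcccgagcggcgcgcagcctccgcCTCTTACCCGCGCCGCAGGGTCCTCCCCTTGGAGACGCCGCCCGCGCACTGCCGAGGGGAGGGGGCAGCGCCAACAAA
Col4a2: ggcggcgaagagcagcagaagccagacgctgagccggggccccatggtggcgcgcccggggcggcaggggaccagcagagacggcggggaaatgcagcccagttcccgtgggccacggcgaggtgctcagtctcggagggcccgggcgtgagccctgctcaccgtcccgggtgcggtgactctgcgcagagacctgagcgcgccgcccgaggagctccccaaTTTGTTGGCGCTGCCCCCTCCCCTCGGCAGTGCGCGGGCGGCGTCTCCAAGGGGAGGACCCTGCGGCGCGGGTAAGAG

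Of the 48 member genes, 39 had a mean log2 signal over the 6 arrays at or above 4.345, the median of all probe sets, and were tested among 10547 genes with limma. None of the 39 differed between 2MT and saline hearts at an adjusted p under 0.05, where 4.63% of all tested genes did. At an unadjusted p under 0.05, Col6a2 and Col15a1 passed, 2 of 39 (5.13%) against 17.8% of all tested genes, and both were higher in 2MT (9.6% of all tested genes passed as higher and 8.15% as lower). In 6 of the 39 genes (15.4%) the 3 2MT arrays and the 3 saline arrays did not overlap, against 21.1% of all tested genes. Col5a1, Col5a2, Col6a1 and Col6a2 lay above the saline arrays (10.3%, against 11.1% of all tested genes), and Col4a4 and Loxl3 lay below them (5.13%, against 10.1%).

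The differences in array signal were bounded as well as not called. The 95% interval of the log2 difference lay within 1.5-fold in either direction for all 39 tested members, as it did for 96.5% of all tested genes, and within 1.25-fold for 26 of 39 (66.7%), against 65.2% of all tested genes. These intervals hold for 1 gene at a time and were not widened for the number of genes. With signal over background unknown, they bound the array signal and not the amount of transcript. The highest upper end was that of Col15a1, which allows 1.38-fold more signal in 2MT hearts. The lowest lower end was that of Lox, which allows 1.45-fold less signal. The median log2 difference of the members was 0.03 (0.0033 over all tested genes), and 28 of 39 had the higher mean in 2MT (71.8%, against 51.9% of all tested genes). The median absolute difference was 0.08 for the members and 0.09 for all tested genes, and the median SD within a group was 0.10 for both.

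**Figure D1:**
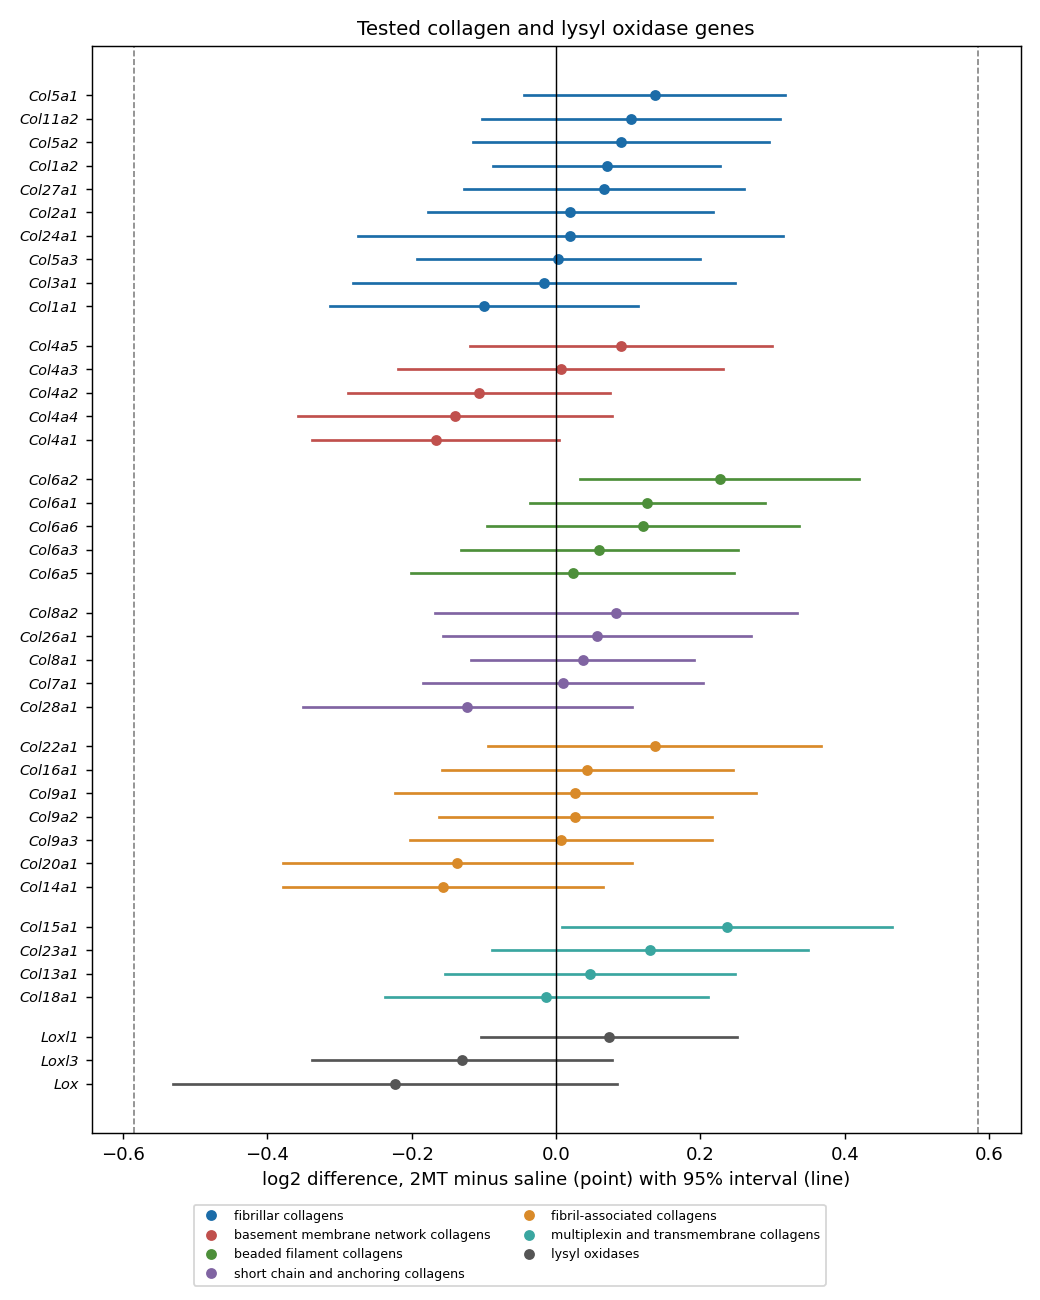
Log2 difference, 2MT minus saline, of the 39 tested collagen and lysyl oxidase genes (points) with the 95% interval from limma (lines), grouped and coloured by class; dashed lines mark 1.5-fold in either direction. Every interval lies between the dashed lines, and only those of Col6a2 and Col15a1 do not include 0.

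The fibrillar collagens are the load-bearing fibres and their close relatives. Of 11 genes 10 were tested, 0 were called (0 also at an unadjusted p under 0.05), and the median difference was 0.04. Col1a1, which encodes the α1 chain of type I collagen, had log2 signals of 6.56, 6.19 and 6.26 in 2MT hearts, against 6.50, 6.30 and 6.51 in saline hearts. The groups overlapped, with 2MT 1 the highest of the 6 arrays and 2MT 2 the lowest. Its difference was -0.10 ± 0.10 (SE, adjusted p = 0.67), and the 95% interval ran from -0.31 to 0.11. Single arrays weighed on it, with -0.21 without 2MT 1 (unadjusted p = 0.039 in limma, adjusted p = 0.27) and -0.027 without 2MT 2.

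Col1a2, the second chain of type I collagen, had 6.74, 6.56 and 6.64 in 2MT hearts, against 6.62, 6.53 and 6.58 in saline hearts. Its difference was 0.07 ± 0.07 (SE, adjusted p = 0.685), so the 2 chains of 1 protein differed in sign and both intervals held 0. Col3a1, which encodes the single chain of type III collagen, had 6.44, 5.89 and 6.10 in 2MT hearts, against 6.34, 6.02 and 6.12 in saline hearts. The 2MT arrays spanned the whole range of the saline arrays, and the difference was -0.02 ± 0.12 (SE, adjusted p = 0.97), with a positive sign when 2MT 2, 2MT 3 or saline 1 was left out (0.11, 0.0050 and 0.073).

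Col5a1 and Col5a2 encode chains of type V collagen, which seeds and limits the width of type I fibres. Col5a1 had 5.39, 5.41 and 5.40 in 2MT hearts, against 5.28, 5.21 and 5.30 in saline hearts. It varied least within groups of all tested members (pooled SD 0.03), the groups did not overlap, and its difference of 0.14 ± 0.08 (SE) had an adjusted p of 0.43. That SE also draws on the spread of genes of similar signal. Without the variance trend the unadjusted p in limma was 0.061, against 0.13 with it (adjusted p = 0.33 against 0.43). Col5a2 had 4.76, 4.71 and 4.73 in 2MT hearts, against 4.69, 4.59 and 4.65 in saline hearts, again without overlap (difference 0.09 ± 0.10, SE, adjusted p = 0.69). Both chains were thus higher on each 2MT array than on any saline array, by amounts that did not pass the test. Col5a3, the third type V chain, had a difference of 0.0033. The other fibrillar members, Col2a1, Col11a2, Col24a1 and Col27a1, had differences between 0.02 and 0.10, and their groups overlapped.

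Of the 6 basement membrane network genes, 5 were tested, 0 were called (0 also at an unadjusted p under 0.05) and the median difference was -0.11, the lowest of the 6 collagen classes. Col4a1 and Col4a2 encode the chains of the common type IV network. Col4a1 had 6.75, 6.64 and 6.72 in 2MT hearts, against 7.02, 6.85 and 6.74 in saline hearts. Only saline 3 fell within the range of the 2MT arrays, and the difference was -0.17 ± 0.08 (SE, adjusted p = 0.30). The lower end of its 95% interval, -0.34, allows 1.26-fold less signal in 2MT hearts, and the upper end lay just above 0.

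Col4a2 had 6.95, 6.71 and 6.68 in 2MT hearts, against 6.99, 6.88 and 6.79 in saline hearts, a difference of -0.11 ± 0.08 (SE, adjusted p = 0.56) that was -0.19 without 2MT 1 and -0.055 without saline 1. The 2 genes that start from the region shown above lay on the same side of their 6-array means on 5 of 6 arrays. The SD of their log ratio over the 6 arrays was 0.09, against 0.13 for each gene alone. In both, saline 1 was the highest array. The exception was 2MT 1, where Col4a2 was high and Col4a1 was not. Other pairs of chains did the same: Col5a1 with Col5a2 (SD of the log ratio 0.04) and Col8a1 with Col8a2 (0.13) also lay on the same side on 5 of 6 arrays. Col1a1 with Col1a2 and Col6a1 with Col6a2 did so on 4 arrays. Col4a3 with Col4a4, and Col6a3 with Col6a1 or Col6a2, did so on 3. The part of the shared start region was not tested.

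Col4a3, Col4a4 and Col4a5 encode chains of the type IV network of specialised basement membranes such as that of the kidney. Col4a4 had 4.57, 4.56 and 4.41 in 2MT hearts, against 4.71, 4.60 and 4.65 in saline hearts. The groups did not overlap, and the difference of -0.14 ± 0.10 (SE) had an adjusted p of 0.52. Col4a3 and Col4a5 had differences of 0.0067 and 0.09, so the class had members on both sides of 0.

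The beaded filament class held the 6 type VI genes alone, with Col26a1 and Col28a1 listed among the short chain and anchoring genes. Of the 6, 5 were tested. All 5 had a higher mean in 2MT hearts and 0 were called (1 at an unadjusted p under 0.05), with a median difference of 0.12. Col6a1, Col6a2 and Col6a3 encode the 3 chains of the common type VI filament. Col6a2 had 6.15, 6.10 and 6.06 in 2MT hearts, against 5.72, 5.87 and 6.04 in saline hearts. The groups did not overlap, although the lowest 2MT array, 2MT 3, lay only just above saline 3. Its difference of 0.23 ± 0.09 (SE) had the smallest p of the members (unadjusted p = 0.025, adjusted p = 0.20, 95% interval 0.03 to 0.42). Leaving out saline 3 gave 0.31 and an adjusted p of 0.059, and leaving out saline 1 gave 0.15 and 0.49.

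Col6a1 had 6.61, 6.45 and 6.51 in 2MT hearts, against 6.44, 6.31 and 6.44 in saline hearts, with no overlap (difference 0.13 ± 0.08, SE, adjusted p = 0.41). Col6a3 had 5.42, 5.38 and 5.30 in 2MT hearts, against 5.30, 5.40 and 5.22 in saline hearts, with overlap (difference 0.06 ± 0.09, SE, adjusted p = 0.80). The third chain therefore did not separate the groups. Col6a5 and Col6a6, chains that can take the place of the third, had differences of 0.02 and 0.12. The second probe set of Col6a5, far under 4.345, had 2.45, 2.36 and 2.29 in 2MT hearts, against 2.88, 2.76 and 2.51 in saline hearts. It did not follow the first probe set, and it stayed out of the test. The second probe set of Col6a6 also stayed out, at a mean of 4.27, with a difference of 0.01 and overlap. Averaged over both of its probe sets, Col6a6 had a difference of 0.065.

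Averaged over its 5 tested genes, the beaded filament class lay at 0.058, 0.058 and 0.050 from the 6-array mean on the 2MT arrays, against -0.052, -0.094 and -0.022 on the saline arrays. No other class separated the groups in this way. The fibrillar class lay at 0.06, -0.01 and 0.01 on the 2MT arrays, against 0.02, -0.11 and 0.03 on the saline arrays. The basement membrane class lay at 0.07, -0.06 and -0.11 on the 2MT arrays, against 0.11, -0.0010 and -0.011 on the saline arrays. The separation was noticed in the values, so no test is given for it.

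**Figure D2:**
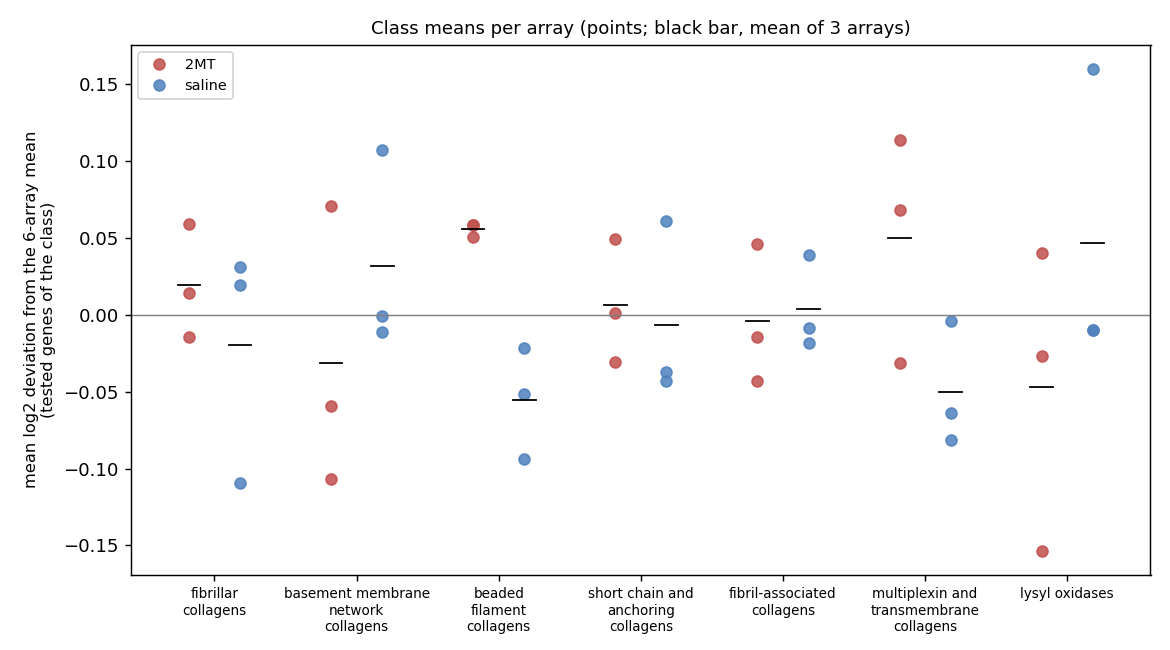
Mean deviation of each class's tested genes from their 6-array means (vertical axis, log2), per array, for 2MT (red, left) and saline (blue, right) arrays; black bars are means of 3 arrays. The beaded filament collagens are the only class whose 3 2MT arrays (0.05 to 0.06) all lie above its 3 saline arrays, and the lysyl oxidases spread widest.

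Of the 6 genes listed as short chain and anchoring, 5 were tested and 0 were called (0 also at an unadjusted p under 0.05), with a median of 0.04. Col28a1, a chain of the sheath around nerve fibres, had 4.43, 4.41 and 4.56 in 2MT hearts, against 4.55, 4.72 and 4.50 in saline hearts (difference -0.12 ± 0.11, SE, adjusted p = 0.60). Col8a1, a chain of the network beneath endothelium, was steady at 6.53, 6.53 and 6.40 in 2MT hearts, against 6.47, 6.45 and 6.43 in saline hearts. Its partner Col8a2, the anchoring fibril gene Col7a1 and Col26a1 had differences of 0.08, 0.01 and 0.06.

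Of 9 measured fibril-associated genes, 7 were tested and 0 were called (0 also at an unadjusted p under 0.05), with a median of 0.03. Col14a1, which coats type I fibres, had 5.11, 5.14 and 5.22 in 2MT hearts, against 5.13, 5.32 and 5.49 in saline hearts. The 2MT arrays lay close together in the lower part of the saline range, with 2MT 1 just under it. The difference was -0.16 ± 0.10 (SE, adjusted p = 0.47), with -0.25 without saline 1 and -0.068 without saline 3. Col22a1, a collagen of muscle-tendon junctions, and Col20a1 had the same size of difference with opposite sign, 0.14 and -0.14. Col9a1, Col9a2, Col9a3 and Col16a1 lay between 0.0067 and 0.04.

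Of the 6 multiplexin and transmembrane genes, 4 were tested and 0 were called (1 at an unadjusted p under 0.05), with a median of 0.09. Col15a1, a multiplexin of the capillary and muscle basement membrane zone, had 6.41, 5.99 and 6.24 in 2MT hearts, against 5.91, 5.89 and 6.13 in saline hearts. It had the largest difference of the tested members, 0.24 ± 0.11 (SE, unadjusted p = 0.043, adjusted p = 0.26, 95% interval 0.01 to 0.46), and the groups overlapped through 2MT 2 and saline 3. Without 2MT 1 the difference was 0.14, and without 2MT 2 it was 0.35. Col18a1, the other multiplexin and the source of endostatin, had 4.83, 4.57 and 4.71 in 2MT hearts, against 4.71, 4.79 and 4.65 in saline hearts, a difference of -0.01. Col13a1 and Col23a1, both transmembrane, had 0.05 and 0.13.

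Of 4 lysyl oxidase genes 3 were tested and 0 were called (0 also at an unadjusted p under 0.05). Lox, the founding enzyme of the family, had 4.25, 4.51 and 4.63 in 2MT hearts, against 5.01, 4.51 and 4.54 in saline hearts. It had the largest pooled SD of the tested members, 0.24, and saline 1 alone lay above all 2MT arrays. The difference was -0.22 ± 0.14 (SE, adjusted p = 0.46), with -0.06 without saline 1 and -0.12 without 2MT 1. Its mean of 4.46 in 2MT hearts and 4.69 in saline hearts lay close to the floor of 4.345. Loxl1, an enzyme of elastic fibre assembly, had 5.71, 5.74 and 5.85 in 2MT hearts, against 5.76, 5.67 and 5.65 in saline hearts (difference 0.07 ± 0.08, SE, adjusted p = 0.71). Loxl3 had 4.52, 4.61 and 4.58 in 2MT hearts, against 4.65, 4.73 and 4.72 in saline hearts. Its groups did not overlap, and its difference of -0.13 ± 0.10 (SE) had an adjusted p of 0.53.

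**Figure D3:**
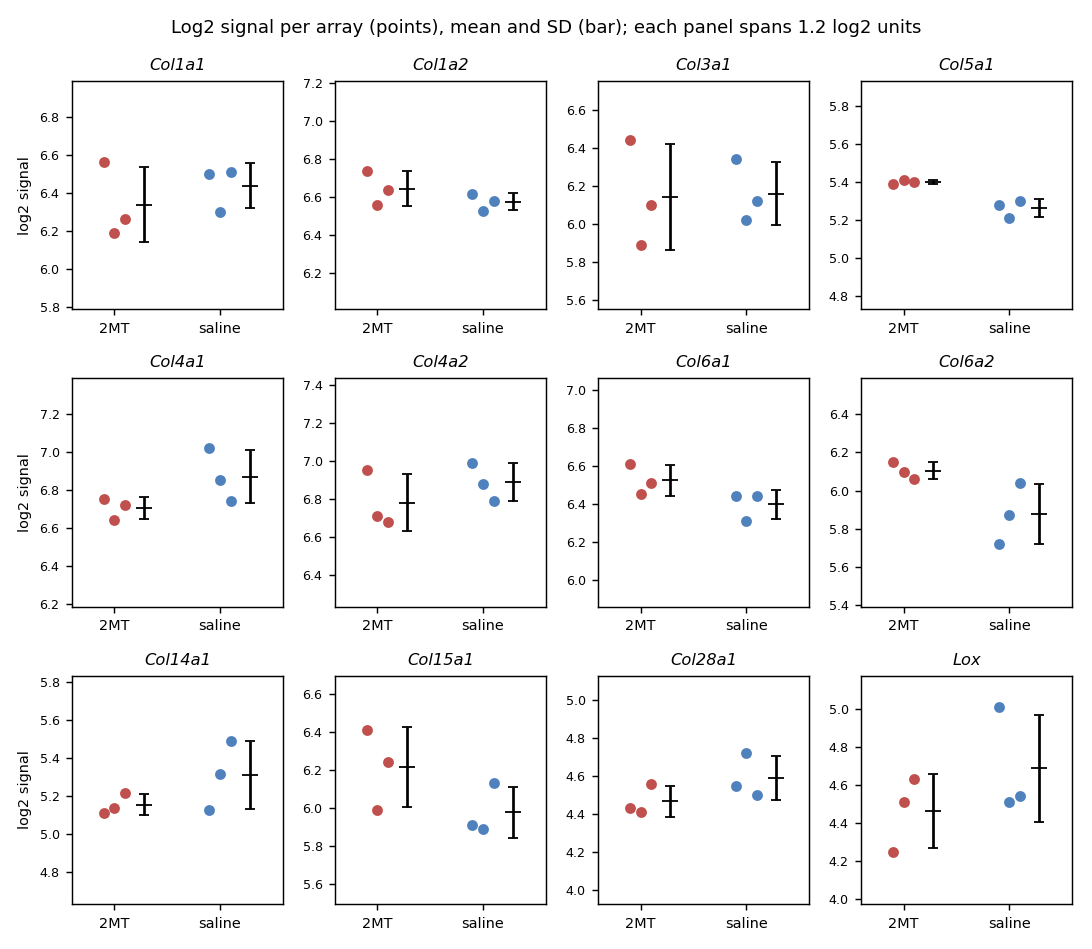
Log2 signal on each array (points; 2MT red, left, and saline blue, right) with mean and SD (n = 3) for 12 members, each on a vertical axis of the same length. The 2MT and saline points interleave in most panels, are apart in Col5a1, Col6a1 and Col6a2, and in Lox a single saline array at 5.01 stands above the rest.

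The 9 genes left out as dim were Col4a6, Col6a4, Col10a1, Col11a1, Col12a1, Col17a1, Col19a1, Col25a1 and Loxl4. Their means over the 6 arrays ran from 3.28 to 4.12, their differences from -0.13 to 0.18, and the groups overlapped in all 9. Without the floor, when all 48 member genes were tested among 19938 genes, 0 members were called (2 at an unadjusted p under 0.05). Col17a1 at 4.12 was the highest gene left out and Col6a5 at 4.36 the lowest kept. Col10a1, a cartilage collagen, and Col17a1, a collagen of skin hemidesmosomes, were among the 9 left out. Other cartilage collagens, Col2a1, Col9a1, Col9a2, Col9a3 and Col11a2, were over the floor, with means of 4.40 to 5.44. With signal over background unknown, a place over the floor does not show that a gene was expressed.

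Spread over arrays was shared by some members. On 2MT 1, Col1a1 (6.56), Col3a1 (6.44), Col15a1 (6.41), Col6a1 (6.61) and Col1a2 (6.74) each had their highest value of the 6 arrays, a set named after its values were seen. Others, such as Lox (4.25) and Col14a1 (5.11), had their lowest value there. Over all 39 tested members the mean deviation on 2MT 1 was 0.015 (median -0.013), against a mean of 0.033 on saline 1. The part of the cell makeup of each piece of tissue in these values was not tested.

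Markers of the cells that make collagen gave the following levels. Of 12 fibroblast markers 11 were over the floor, and their mean log2 signal was 6.41 to 6.51 on the 2MT arrays, against 6.41 to 6.44 on the saline arrays (sums 70.53 to 71.65, against 70.48 to 70.88). Medag, an adipocyte-linked gene on that list, fell by 0.37 ± 0.09 (SE, adjusted p = 0.031), a call lost without any 1 of the 6 arrays (adjusted p 0.051 to 0.12), with no dim floor (0.055) and with every probe set tested on its own (0.058). Of the 11 markers 8 had the higher mean in 2MT (51.9% of all tested genes did) and 3 the lower. At an unadjusted p under 0.05, 4 passed (17.8% of all tested genes did). Besides Medag these were Cd34 (0.21), Lsp1 (0.21) and Gsn (-0.11), named after their values were seen. Pdgfra, the fibroblast receptor for platelet-derived growth factor, had a difference of 0.08 (adjusted p = 0.65). All 10 endothelial markers were over the floor, with means of 7.27 to 7.44 on the 2MT arrays, against 7.24 to 7.45 on the saline arrays. Pecam1, an endothelial adhesion protein, fell by 0.33 ± 0.07 (SE, adjusted p = 0.020), a call lost without saline 1 (0.094), saline 2 (0.086), 2MT 2 (0.092) or 2MT 3 (0.11), with every probe set tested on its own (0.052) and without the variance trend (0.089). Of the 10 markers 4 had the higher mean in 2MT (against 51.9% of all tested genes) and 6 the lower. At an unadjusted p under 0.05, 3 passed (against 17.8%). The other 2 were higher and were named after their values were seen. Kdr, a receptor for vascular endothelial growth factor, had 0.24 (adjusted p = 0.16) with no overlap of the groups, and Emcn, endomucin, had 0.20 (adjusted p = 0.16). Of 7 markers of activated fibroblasts 2 were over the floor, and 0 were called (0 also at an unadjusted p under 0.05), with means of 6.20 to 6.73 on the 2MT arrays, against 6.40 to 6.50 on the saline arrays. These were Acta2, the smooth muscle and myofibroblast actin, at 8.71, 7.71 and 8.13 in 2MT hearts, against 8.26, 7.85 and 7.96 in saline hearts, and Tagln, transgelin, at 4.74, 4.68 and 4.51 in 2MT hearts, against 4.73, 5.09 and 4.84 in saline hearts. Acta2 was highest on 2MT 1 and Tagln on saline 2. The 9 smooth muscle and pericyte markers over the floor had means of 6.97 to 7.09 on the 2MT arrays, against 6.98 to 7.03 on the saline arrays, and 0 were called (1 at an unadjusted p under 0.05, Kcnj8, a potassium channel of pericytes, with 0.24 and adjusted p = 0.059).

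In whole tissue, fewer cells of a type and less RNA per cell cannot be told apart. The 2 erythrocyte markers over the floor, Alas2 and Bpgm, had a mean of 6.92 on saline 3 and 5.76 to 6.08 on the other arrays, and their part in the values of saline 3 was not tested. The 10 macrophage markers had means of 6.19 to 6.37 on the 2MT arrays, against 6.23 to 6.47 on the saline arrays. Of the 10 markers 4 had the higher mean in 2MT (against 51.9% of all tested genes) and 6 the lower. Only Fcgr3, an antibody receptor, passed at an unadjusted p under 0.05 in limma (17.8% of all tested genes did). It fell by 0.53 ± 0.09 (SE, adjusted p = 0.0044). Epicardial and valve cells also make collagen. Of their 9 markers 2 were over the floor, Prg4 (difference -0.51, adjusted p = 0.051, with -0.66 and 0.013 without saline 3 but -0.33 and 0.18 without saline 1) and Wt1 (-0.15, adjusted p = 0.62). The only tested neuron and Schwann cell marker, Sox10, had -0.03, and 0 of 5 measured adipocyte markers were over the floor.

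The genes that fold, carry, bind, cut and sense collagen were read from 6 further lists with 92 tested genes. Of these 3 rose and 4 fell in 2MT hearts, where 2.22% of all tested genes rose and 2.41% fell, and the median difference was -0.0050. Synthesis genes act on the chains in the endoplasmic reticulum and on the way out. Of 24 tested, 1 rose and 1 fell, with a median of 0.02.

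Sec24d, a coat protein of the vesicles that carry procollagen out of the endoplasmic reticulum, had 6.90, 6.71 and 6.79 in 2MT hearts, against 7.29, 7.28 and 7.17 in saline hearts. All 2MT arrays lay below all saline arrays, and the gene fell by 0.45 ± 0.07 (SE, adjusted p = 0.0024). Ppib, the cyclophilin that speeds prolyl isomerisation in the collagen helix, had 7.89, 7.71 and 7.80 in 2MT hearts, against 7.53, 7.41 and 7.63 in saline hearts. It rose by 0.28 ± 0.07 (SE, adjusted p = 0.042), a call lost without 2MT 1 (0.15), 2MT 2 (0.058), 2MT 3 (0.15), saline 1 (0.10) or saline 2 (0.15), with no dim floor (0.072), with every probe set tested on its own (0.078) and without the variance trend (0.12). Serpinh1, the collagen chaperone Hsp47, had a difference of 0.15 ± 0.10 (SE, adjusted p = 0.49).

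Among 22 tested fibril partners and elastic fibre genes 1 rose and 0 fell. Prelp, a leucine-rich proteoglycan that ties basement membranes to collagen, had 7.52, 7.56 and 7.47 in 2MT hearts, against 7.16, 7.32 and 7.15 in saline hearts. It rose by 0.31 ± 0.07 (SE, adjusted p = 0.017), a call lost without 2MT 1 (0.055), 2MT 2 (0.088), 2MT 3 (0.054) or saline 1 (0.074) and without the variance trend (0.062). Dcn, the proteoglycan decorin on collagen fibres, and Postn, a matricellular protein of activated fibroblasts, had differences of 0.07 and -0.11 (adjusted p = 0.51 and 0.63), and Sparc had 0.02 (adjusted p = 0.92).

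Among 14 tested basement membrane partners 1 rose and 0 fell. Pxdn encodes peroxidasin, the enzyme that makes the sulfilimine cross-links of type IV collagen. It had 7.0, 6.61 and 6.62 in 2MT hearts, against 6.30, 6.31 and 6.11 in saline hearts. All 2MT arrays lay above all saline arrays, and the gene rose by 0.50 ± 0.10 (SE, adjusted p = 0.011). Beside it, Col4a1 and Col4a2, whose chains it cross-links, had -0.17 and -0.11.

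Of 11 tested genes of collagen breakdown and its inhibitors 0 were called (2 at an unadjusted p under 0.05). These were the metalloproteinase inhibitors Timp3, at 9.13, 9.13 and 9.09 in 2MT hearts, against 9.36, 9.23 and 9.22 in saline hearts (difference -0.15, adjusted p = 0.13), and Timp4, at 7.83, 7.58 and 7.81 in 2MT hearts, against 7.66, 7.49 and 7.30 in saline hearts (difference 0.26, adjusted p = 0.14). The gelatinase gene Mmp2 had a difference of -0.05 (adjusted p = 0.75), and Timp1 was under the floor, at a mean of 4.10 in 2MT hearts and 4.20 in saline hearts.

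Of 5 tested collagen receptors 1 fell. Ddr2, the receptor kinase by which fibroblasts sense fibrillar collagen, had 6.12, 5.98 and 6.09 in 2MT hearts, against 6.41, 6.45 and 6.35 in saline hearts. It fell by 0.34 ± 0.08 (SE, adjusted p = 0.019), a call lost without 2MT 2 (0.096), 2MT 3 (0.065), saline 1 (0.064) or saline 2 (0.069). Of 16 tested genes of transforming growth factor β signalling, the pathway best known for driving collagen genes, 2 fell and 0 rose. At an unadjusted p under 0.05, 5 passed (17.8% of all tested genes did). The mean was higher in 2MT for 5 of the 16 and lower for 11. Ccn2, an early target of that pathway, had 7.13, 7.30 and 7.38 in 2MT hearts, against 8.59, 8.73 and 8.40 in saline hearts, and fell by 1.30 ± 0.08 (SE, adjusted p = 5.6e-07). Tgfbr3, the co-receptor betaglycan, had 7.21, 7.16 and 7.12 in 2MT hearts, against 7.51, 7.67 and 7.42 in saline hearts, and fell by 0.37 ± 0.07 (SE, adjusted p = 0.0088), a call lost without 2MT 3 (0.057). Other genes of that list, named after their values were seen, were not called. Tgfbi had -0.18 (adjusted p = 0.20), Smad7 -0.12 (0.59) and Skil -0.05 (0.83), while Smad6 had 0.10 (0.64) and Smad3 0.19 (0.25). The state of the pathway was not tested. On the same arrays the differences of Col1a1, Col1a2 and Col3a1 were -0.10, 0.07 and -0.02.

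**Figure D4:**
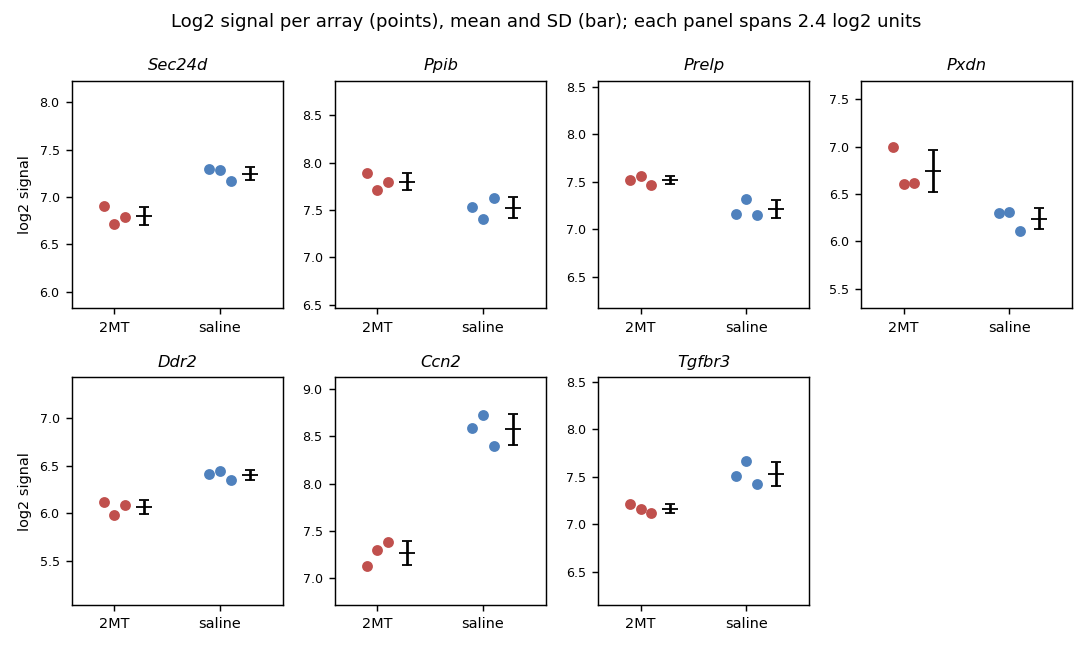
Log2 signal on each array (points; 2MT red, left, and saline blue, right) with mean and SD (n = 3) for the 7 called genes of the 6 further matrix lists, each on a vertical axis of the same length. The groups do not overlap in any panel, and Ccn2 shows the widest gap, with 2MT arrays at 7.13 to 7.38 and saline arrays at 8.40 to 8.73.

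The promoter windows of 36 of the 48 member genes were in the RefSeq table (build GRCm38.p6) and were searched on both strands for 5 short motifs. The TATA box TATAAA was found in 5 of 36 member genes (13.9%, against 15.7% of all 27025 genes in the table). The CCAAT box CCAAT was found in 13 (36.1%, against 41.1%), the GC box GGGCGG in 23 (63.9%, against 38.2%) and the SMAD box CAGAC in 21 (58.3%, against 53.2%). The median GC content of the windows was 60.2% for members and 52.8% for all genes. Motifs could overlap each other, and a match describes letters only.

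The core of the antioxidant response element, TGACNNNGC, is shown because it is the element read by NRF2, and it was found in 7 of 36 member genes (19.4%, against 14.0% of all genes). All 7 genes were tested and 0 were called. The matches follow with 10 bases on either side, in the direction of the match, with the core in capitals.
Col13a1, chr10:61979089-61979117, plus strand: ctctgtaactTGACACAGCcggcgcggcc
Col24a1, chr3:145292361-145292389, plus strand: tagcccagccTGACCCTGCtaggttggtg
Col4a2, chr8:11312721-11312749, plus strand: ccgggtgcggTGACTCTGCgcagagacct
Col6a2, chr10:76623458-76623486, minus strand: ccccacccgcTGACCCCGCccatccgcgg
Col6a5, chr9:105960645-105960673, plus strand: gggcaggtgcTGACCAAGCaccagcagct
Col7a1, chr9:108953436-108953464, plus strand: tcttgggaccTGACCTTGCccttaagtgc
Col9a2, chr4:121039537-121039565, plus strand: gatccgccccTGACCGGGCggagctggac

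The log2 differences of these genes were 0.05 for Col13a1, 0.02 for Col24a1, -0.11 for Col4a2, 0.23 for Col6a2, 0.02 for Col6a5, 0.01 for Col7a1 and 0.03 for Col9a2. The match of Col4a2 lies outside the bases it shares with Col4a1, whose window holds none.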

How the data were processed

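Total RNA of 3 2MT and 3 saline left ventricles was isolated with Trizol and labelled as cDNA for Affymetrix arrays, per the labels' protocols. The deposited values are 1 log2 signal per probe set and array. The log base is inferred from their range, 0.51 to 13.5, and array medians ran from 4.32 to 4.37. MAS5 is named in the submitters' processing notes; other normalization steps were not given in the sources used here. Values entered the fits as deposited.

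A gene symbol stood alone on 21789 of 28944 probe sets. For each of 19938 genes the probe set of highest mean was kept, and genes averaging under 4.345 were left out. limma 3.58.1 (R 4.3.3) then compared 2MT with saline, two-sided and with a variance trend, and p-values were adjusted by Benjamini-Hochberg over 10547 genes. Adjusted p values and 95% intervals come from that fit unless another setting or a left-out array is named. Those p-values were adjusted over the genes tested in that setting. The words "rose" and "fell" mean an adjusted p under 0.05. P-values measure the spread between these arrays, which may be technical, and their number limits the precision. The smallest exact permutation p of 3 against 3 is 0.1. The procedure was tested on simulated data. Python 3.11.15 and matplotlib 3.10.9 drew the figures.

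The members and lists were chosen with earlier results of these data known. The rule for named genes took every member, the called genes of each other list (or the 2 with the smallest p) and a fixed set of 10, and other genes named are said to be chosen after their values were seen. The lists were the 6 matrix lists and markers of fibroblasts, activated fibroblasts, smooth muscle, endothelium, cardiomyocytes, macrophages, erythrocytes, epicardium and valves, nerve and fat. Alternatives were 3 normalizations, 2 dim floors, an offset before log2, 2 ways of using several probe sets, a fit with no trend, weights per array, a block for replicate number, leaving out each array, and a threshold of 0.1.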

Additional observations from a re-analysis of the deposited data

How the results depend on the processing

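No member was called under any of 17 settings, 6 of which left out 1 array. With all arrays and an adjusted p under 0.1 as the threshold the count was also 0, while without saline 3 Col6a2 would pass that threshold. At an unadjusted p under 0.05, 0 to 3 members passed under these settings. The smallest adjusted p was 0.059, for Col6a2 without saline 3, the array apart in erythrocyte markers. The median difference of the tested members lay between 0.02 and 0.06.

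Outside the leave-out fits, 3 signs changed, of values near 0: Col5a3 was -0.0029 with cyclic loess, and with array weights Col4a3 was -0.014 and Sparc -0.0056. With 1 array left out, values spanned -0.165 to 0.11 for Col3a1, -0.077 to 0.053 for Col18a1, -0.082 to 0.193 for Col24a1, -0.025 to 0.125 for Col26a1, -0.028 to 0.047 for Col2a1, -0.065 to 0.055 for Col4a3, -0.040 to 0.045 for Col5a3, -0.015 to 0.058 for Col6a5, -0.042 to 0.048 for Col7a1, -0.063 to 0.102 for Col9a1, -0.0017 to 0.083 for Col9a2 and -0.062 to 0.088 for Col9a3. Values kept their sign but spanned -0.21 to -0.027 for Col1a1, 0.023 to 0.113 for Col1a2, -0.23 to -0.092 for Col4a1, -0.19 to -0.055 for Col4a2, -0.25 to -0.068 for Col14a1, -0.17 to -0.058 for Col28a1 and -0.31 to -0.062 for Lox. The ranges were -0.11 to 0.010 for Mmp2, -0.098 to 0.087 for Sparc, -0.103 to 0.397 for Acta2, -0.128 to 0.097 for Sox10, -0.793 to 0.167 for Alas2 and -0.237 to 0.0083 for Bpgm.

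Of the 6 further matrix lists, 1 to 4 genes rose and 2 to 5 fell with 1 array left out, against 3 and 4 with all arrays, and 1 rose without the variance trend. The cause was not tested. The calls of Sec24d, Pxdn and Ccn2 held under all 17 settings.

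Same-numbered arrays had deviations from their group means that correlated at 0.07, 0.04 and 0.02 across genes, so the numbers were not taken to pair the arrays. With the replicate block 586 genes were called in place of 488, 0 members and 4 and 5 genes of the further matrix lists, and every array correlated best with its own number except saline 3. No detection calls were used here, so a low signal cannot be told from background.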
